A study of Rattus norvegicus and Mus musculus with 12 samples.

Results

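The expression of 5 genes of fibroblast growth factors (Fgf1, Fgf2, Fgf7, Fgf10 and Fgf18) and 5 genes of their receptors (Fgfr1, Fgfr2, Fgfr3, Fgfr4 and Fgfrl1) was examined in cultured rat and mouse chondrocytes. These 10 genes were taken by gene symbol from the 19687 genes of the rat table and the 28603 genes of the mouse table, and each symbol occurred once in both tables. The study compared articular chondrocytes of newborn rats (Sprague–Dawley, SD) and newborn mice (C57BL/6) at passage 1, either left untreated (RC and MC groups) or exposed for 24 h to the inflammatory cytokine IL-1β at 20 ng/ml (RM and MM groups). Each group had 3 libraries of bulk RNA, described as independent samples without saying whether they came from separate animals, so the P values measure the spread between these samples. The strain given with the mouse libraries changes from one library to the next (C57BL/6 to C57BL/9), and the groups were taken from the library names. The cells were freed from cartilage with collagenase and cultured in serum, and no sorting step is named. In such bulk samples, fewer cells of a type and less RNA per cell cannot be told apart.

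Fibroblast growth factors are secreted proteins that act through receptor tyrosine kinases together with heparan sulfate chains on the cell surface. Fgf7 and Fgf10 belong to 1 subfamily and bind chiefly the epithelial splice form of the receptor encoded by Fgfr2. Fgf1 binds all 4 kinase receptors, Fgf2 is stored in the matrix around chondrocytes, and Fgf18 is a growth factor of cartilage that signals chiefly through the receptor of Fgfr3. The receptor encoded by Fgfr3 restrains the growth of chondrocytes in the growth plate, and Fgfr1 is the main receptor of many mesenchymal cells. Fgfrl1 encodes a receptor that lacks the kinase domain. The reads were counted per gene, so the splice forms of the receptors could not be separated.

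The stretches of 250 bases before the RefSeq start of the gene are shown for 6 genes. Each of these was later found to move in the same direction in both species, Fgf7 and Fgf10 up and Fgfr2, Fgfr3, Fgfr4 and Fgfrl1 down. The stretches are from rat build GRCr8, whereas the submitters' processing notes name Rnor_6.0 for the counts. The windows are chr3:133735377-133735626 on the plus strand for Fgf7, chr2:52533689-52533938 on the plus strand for Fgf10, chr1:194280915-194281164 on the minus strand for Fgfr2, chr14:81227210-81227459 on the minus strand for Fgfr3, chr17:9481390-9481639 on the minus strand for Fgfr4 and chr14:1166335-1166584 on the minus strand for Fgfrl1. Each is written 5′ to 3′ on the strand of the gene, and capitals mark matches to the GC box (GGGCGG or its reverse CCGCCC) and the TATA box (TATAAA or its reverse TTTATA).
Fgf7: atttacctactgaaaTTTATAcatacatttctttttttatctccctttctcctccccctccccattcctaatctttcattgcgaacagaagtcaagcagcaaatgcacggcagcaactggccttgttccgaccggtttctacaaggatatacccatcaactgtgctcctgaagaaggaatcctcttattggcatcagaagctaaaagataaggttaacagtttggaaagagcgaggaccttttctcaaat
Fgf10: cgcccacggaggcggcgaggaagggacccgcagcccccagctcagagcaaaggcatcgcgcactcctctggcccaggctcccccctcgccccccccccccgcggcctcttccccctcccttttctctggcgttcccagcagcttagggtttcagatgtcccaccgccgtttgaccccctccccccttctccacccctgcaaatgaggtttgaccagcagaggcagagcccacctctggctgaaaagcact
Fgfr2: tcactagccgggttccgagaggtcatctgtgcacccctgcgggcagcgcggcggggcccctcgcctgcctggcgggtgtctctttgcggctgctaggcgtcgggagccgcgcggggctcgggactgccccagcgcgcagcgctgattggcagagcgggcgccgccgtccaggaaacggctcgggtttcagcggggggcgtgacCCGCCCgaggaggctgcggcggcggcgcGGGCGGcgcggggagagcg
Fgfr3: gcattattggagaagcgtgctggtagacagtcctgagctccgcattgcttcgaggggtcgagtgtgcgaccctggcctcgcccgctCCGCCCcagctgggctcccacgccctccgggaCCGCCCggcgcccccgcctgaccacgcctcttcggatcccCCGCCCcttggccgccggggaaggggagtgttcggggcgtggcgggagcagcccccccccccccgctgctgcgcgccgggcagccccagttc
Fgfr4: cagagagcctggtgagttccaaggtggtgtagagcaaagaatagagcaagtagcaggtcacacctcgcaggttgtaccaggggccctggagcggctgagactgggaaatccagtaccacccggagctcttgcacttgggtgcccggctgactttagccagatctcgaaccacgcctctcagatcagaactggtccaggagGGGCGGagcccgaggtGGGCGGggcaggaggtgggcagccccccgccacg
Fgfrl1: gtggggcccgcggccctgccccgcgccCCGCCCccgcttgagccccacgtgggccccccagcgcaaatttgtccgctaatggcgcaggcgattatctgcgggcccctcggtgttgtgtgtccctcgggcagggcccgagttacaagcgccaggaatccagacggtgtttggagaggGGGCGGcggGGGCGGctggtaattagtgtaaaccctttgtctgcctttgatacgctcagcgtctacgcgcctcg
The 4 receptor genes each held at least 1 GC box, and Fgf7 and Fgf10 held none. Over the 33469 rat promoters of the same length, 30.5% held a GC box and 12.9% a TATA box. The window of Fgf7 had a GC content of 41.6%, lower than in most promoters, as 17.3% of them were lower still. The windows of Fgfr2 and Fgfr3 had 76.8% and 74.4%, those of Fgf10 and Fgfrl1 67.2% each and that of Fgfr4 62.8%. The window of Fgf18, a ligand gene not shown here, held a GC box and had 82%. No match to the AP-1 motif TGACTCA (reverse TGAGTCA), which 4.05% of promoters held, or to the NF-κB motif GGGANTTCC (reverse GGAANTCCC, 1.43%), each searched on both strands, lay in these 6 windows. A match of letters is a description of the sequence and not a binding site.

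Between 20169272 and 25903459 reads per rat library and between 16841580 and 20048322 reads per mouse library were counted on genes. The levels below are FPKM, the deposited reads scaled to gene length and to the reads counted in the library. The gene lengths behind them differed between the species (693 bases for Fgf7 in rat and 3248 in mouse), so FPKM of the same gene were not compared between rat and mouse. The 10 chondrocyte markers (Col2a1, Acan, Sox9, Comp, Matn1, Matn3, Col9a1, Col11a1, Hapln1 and Cnmd) all reached an FPKM of 1 in both species. Their summed FPKM was 5081 to 5716 (RC) and 2009 to 2053 (RM), and 2404 to 2448 (MC) and 210.3 to 223.9 (MM). All 10 had an adjusted P under 0.05 for a lower level in the model group of each species. This fall ran alongside that of the receptor genes described below, and its part in their change was not tested. Of the other marker lists, the one named for fibroblasts and synovium summed to 1636 to 1795 (RC) and 1640 to 1671 (RM). In mouse it summed to 398.9 to 408.4 (MC) and 466.3 to 479.3 (MM). Its genes were not shown here to be absent from chondrocytes. Prg4 (lubricin) was 8.49 and 475.8 in the RC and RM groups, and 12.9 and 109.1 in the MC and MM groups. It was the only gene of that list of 7 that rose in rat, where 3 fell, among them Col3a1 (916.7 and 469.3) and Cd34 (0.632 and 0.123). In mouse 4 rose and 2 fell, the latter Thy1 (12.5 and 3.48) and Dpt (4.88 and 0.481). Of the 4, Pdgfra (26.36 and 26.02) and Col3a1 (339.2 and 312.8) had a lower mean FPKM in the MM group. They rose by the fit that corrects the library sizes, with log2 fold changes of 0.26 and 0.16. Over all genes tested, 18.3% rose and 16.8% fell in rat, and 37.4% rose and 37.7% fell in mouse. The endothelial list stayed at a summed FPKM of 0.505 or less in every library. Ptprc, the defining gene of leukocytes, averaged 0.0559 or less in each group, and the summed FPKM of the macrophage and leukocyte list was 16.3 to 18.4 (RC), 29.5 to 31.8 (RM), 5.62 to 5.98 (MC) and 32.1 to 33.5 (MM), most of it Cd14 and Cd68. Itgam was at 0 in all mouse libraries. Hypertrophic chondrocyte markers summed to 14.8 to 18.3 (RC), 6.60 to 7.00 (RM), 36.1 to 36.6 (MC) and 7.57 to 8.41 (MM). The osteoblast, muscle and epithelial lists stayed at or below 4.97, 4.30 and 15.8 in every library, the last mostly Krt8 in rat, which was 13.5 (RC) and 2.77 (RM). The parts of these lists in the results were not tested.

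In each species, the model group was set against the control group by fitting the counts with edgeR (quasi-likelihood test), and P was adjusted over all genes tested (Benjamini-Hochberg). By an adjusted P under 0.05, 35.1% of all 13303 rat genes tested and 75.0% of all 14774 mouse genes were called, so a call is common in mouse. The replicates spread less in mouse, with a common biological coefficient of variation of 0.0318 against 0.106 in rat. The very small mouse P values rest in part on this small spread. Of the 9 members tested in rat, 2 rose (Fgf7 and Fgf10) and 4 fell (Fgfr2, Fgfr3, Fgfr4 and Fgfrl1). Over all rat genes tested, 18.3% rose and 16.8% fell. In mouse, all 10 members were tested, 6 rose (the 5 ligand genes and Fgfr1) and 4 fell (the same 4 receptor genes as in rat). Over all mouse genes tested, 37.4% rose and 37.7% fell. The median log2 fold change (log2FC) of the members was -0.29 in rat and 0.37 in mouse, against 0.01 and -0.02 over all genes tested, and 0.09 in mouse with library size alone. The criteria of the study for differentially expressed genes (DEGs) name thresholds for P, fold change and FPKM without saying whether P is adjusted or the fold is on the log2 scale. They were read here as an unadjusted P under 0.05, a log2FC of 0.85 or more in size and an FPKM that reaches 1 in some library. By these, 3 members were higher and 4 lower in rat, against 4.64% and 3.90% of all genes tested (8.54% together). In mouse, 3 were higher and 4 lower by these criteria, against 12.6% and 13.0% of all genes (25.6% together). The FPKM of the groups did not overlap for 7 of the 9 members tested in rat (47.8% of all genes) and for 9 of 10 in mouse (80.3%).

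**Figure D1:**
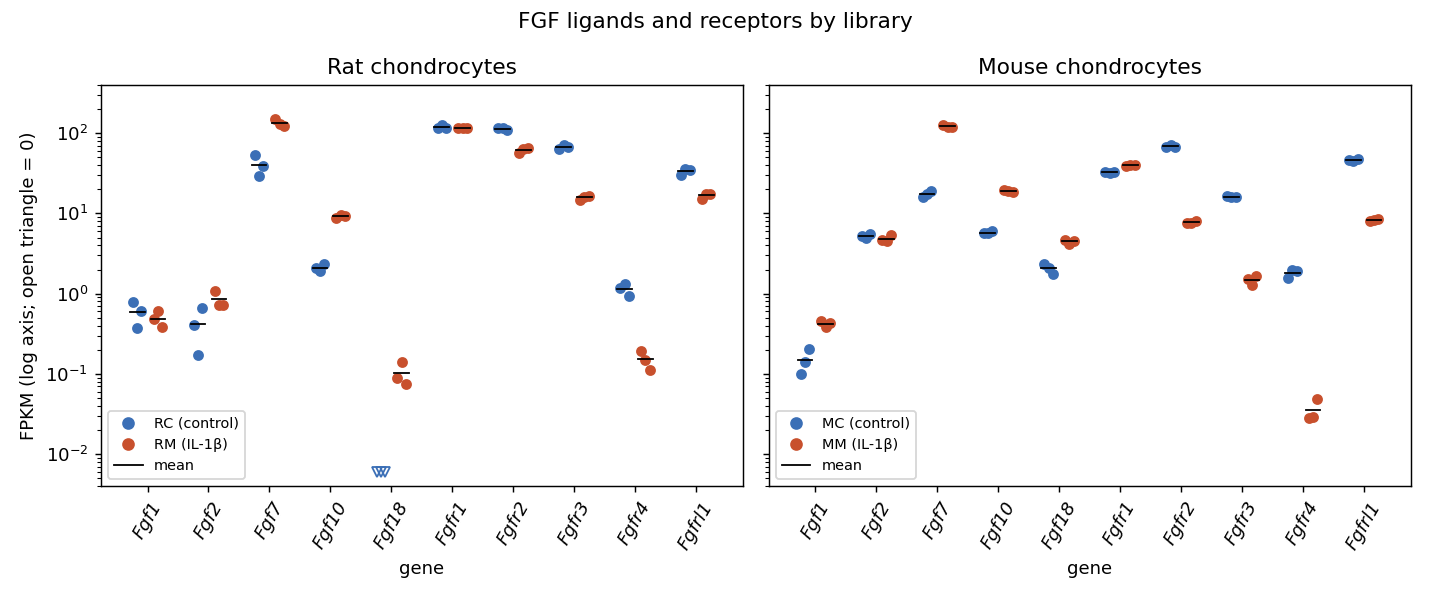
FPKM (log axis) of the 10 FGF genes in each rat library (left, RC blue and RM red-orange) and each mouse library (right, MC blue and MM red-orange). Points are libraries, bars are means of 3, and open triangles mark a value of 0; Fgf7 and Fgf10 lie higher and Fgfr2, Fgfr3, Fgfr4 and Fgfrl1 lower in the model libraries of both species.

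Of the ligand genes, Fgf7 had the highest level in each of the 4 groups. In rat (ENSRNOG00000009425), its FPKM was 53.3, 29.3 and 39.3 in the RC libraries and 150.2, 131.7 and 122.8 in the RM libraries. In mouse (chromosome 2, 126034658 to 126091185, GRCm38), it stood at 16.2, 17.2 and 19.1 in the MC libraries and 128.1, 121.2 and 120.7 in the MM libraries. Every model library lay above every control library, and the RC libraries spread most for their level. In rat the log2FC was 1.71 (standard error, SE, 0.177, adjusted P = 4.29e-05 by edgeR), a 3.28-fold rise. In mouse it was 3.09 (SE 0.0404, adjusted P = 2.81e-59), an 8.53-fold rise.

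Fgf10, the nearest relative of Fgf7 among these genes, rose in both species as well. In rat (ENSRNOG00000012278), its FPKM was 2.07, 1.91 and 2.31 in the RC libraries and 8.78, 9.60 and 9.40 in the RM libraries. In mouse (chromosome 13, 118669791 to 118792115), the gene had 5.64, 5.65 and 6.03 in the MC libraries and 19.9, 19.3 and 18.4 in the MM libraries. The groups did not overlap in either species. The log2FC values were 2.13 in rat (SE 0.0964, adjusted P = 1.25e-07) and 2.01 in mouse (SE 0.0532, adjusted P = 5.01e-42). In mouse, 123 bases of its exons overlap an antisense gene, Gm16263.

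Fgf18 was measured in mouse and close to absent in rat. In rat (ENSRNOG00000048389), it had 0 counts in each RC library and 1, 2 and 1 counts in the RM libraries. With 3 counts set for the empty RC group, the ratio is 1.32. This takes the 4 RM counts as exact, so it is not a lower bound on the change. Fgf18 did not pass the filter on low counts in rat and was not tested there. The gene length behind its FPKM was 555 bases in rat and 1187 in mouse. In mouse (chromosome 11, 33117430 to 33147400), its FPKM was 2.36, 2.10 and 1.74 in the MC libraries and 4.71, 4.13 and 4.58 in the MM libraries, without overlap. Its log2FC reached 1.39 (SE 0.183, adjusted P = 6.4e-10), a 2.63-fold rise, and the summed counts were 127 (MC) and 303 (MM).

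Fgf1 was low in both species and Fgf2 in rat. The FPKM of Fgf1 in rat (ENSRNOG00000013867) was 0.787, 0.374 and 0.611 in the RC libraries and 0.486, 0.602 and 0.381 in the RM libraries. These ranges overlapped, and its log2FC was -0.29 (95% interval -0.94 to 0.37, adjusted P = 0.482). In mouse (chromosome 18, 38838673 to 38929472), Fgf1 was 0.101, 0.141 and 0.204 in the MC libraries and 0.451, 0.385 and 0.431 in the MM libraries. It rose with a log2FC of 1.77 (SE 0.317, adjusted P = 1.26e-06), but rested on 36 counts over the MC group and stayed under an FPKM of 1. Fgf2 in rat (ENSRNOG00000017392) had an FPKM of 0.412, 0.170 and 0.672 in the RC libraries and 1.09, 0.730 and 0.724 in the RM libraries, from 36 and 74 counts over the groups, without overlap. Its log2FC was 1.01 (95% interval 0.04 to 1.97) with an unadjusted P of 0.0426 and an adjusted P of 0.098, so it met the criteria for DEGs and missed the adjusted test. Single libraries moved this value, to 1.49 (adjusted P = 0.047) without RC replicate 3, 0.63 (0.275) without RC replicate 2 and 0.79 (0.284) without RM replicate 1, the last 2 below the fold threshold for DEGs. In mouse (chromosome 3, 37348346 to 37410108), Fgf2 had an FPKM of 5.22, 5.00 and 5.49 in the MC libraries and 4.63, 4.57 and 5.31 in the MM libraries. The FPKM overlapped and were lower on average in the MM group, whereas the fit, which corrects the library sizes, gave a log2FC of 0.16 (SE 0.0648, adjusted P = 0.0226). The direction of Fgf2 in mouse thus turned with the scaling, to -0.12 (adjusted P = 0.09) with library size alone. The call also missed the threshold without MC replicate 1 (adjusted P = 0.0537), MC replicate 2 (0.12) or MM replicate 3 (0.206). In mouse, 895 bases of the exons of Fgf2 overlap those of Gm43439 on the same strand and Nudt6 on the opposite strand. Reads shared with Nudt6 cannot be told apart without strand, and strand would not separate those shared with Gm43439.

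Of the receptor genes, Fgfr1 was the least changed. In rat (ENSRNOG00000016050), its FPKM was 115.1, 126.5 and 114.7 in the RC libraries and 115.8, 115.1 and 116.9 in the RM libraries. No change was called (log2FC -0.05 with a 95% interval of -0.19 to 0.09, adjusted P = 0.572). In mouse (chromosome 8, 25513654 to 25575718), its FPKM was 32.6, 32.2 and 32.6 in the MC libraries and 39.5, 40.5 and 40.0 in the MM libraries, without overlap. It rose with a log2FC of 0.58 (SE 0.0295, adjusted P = 7.91e-27), a 1.49-fold rise that was below the fold threshold for DEGs. With library size alone, the log2FC was 0.30 (adjusted P = 1.39e-14). An antisense gene, Gm16159, overlaps 164 bases of its exons in mouse.

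Fgfr2 fell in both species. In rat (ENSRNOG00000016374), its FPKM was 116.2, 116.7 and 109.5 in the RC libraries and 57.4, 63.7 and 64.7 in the RM libraries. In mouse (chromosome 7, 130162451 to 133123350), it had 67.7, 70.9 and 66.8 in the MC libraries and 7.51, 7.65 and 8.00 in the MM libraries. The groups did not overlap in rat or in mouse. Its log2FC stood at -0.90 in rat (SE 0.0692, adjusted P = 5.74e-06), 1.86-fold lower, and -2.87 in mouse (SE 0.0343, adjusted P = 1.9e-61), 7.31-fold lower. The rat value lay close to the threshold of 0.85 for DEGs, and without 1 library it ran from -0.93 to -0.84, the latter without RM replicate 1. In mouse, 314 bases of its exons overlap Ctbp2 on the same strand.

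Fgfr3, the receptor gene best known for its role in the growth plate, fell in both species. In rat (ENSRNOG00000016818), its FPKM was 64.0, 71.2 and 67.9 in the RC libraries and 14.7, 16.1 and 16.7 in the RM libraries. This gave a log2FC of -2.11 (SE 0.0786, adjusted P = 2.8e-08), 4.33-fold lower. In mouse (chromosome 5, 33721674 to 33737068), the FPKM was 16.5, 15.9 and 16.0 in the MC libraries and 1.51, 1.30 and 1.67 in the MM libraries. Here the log2FC was -3.16 (SE 0.0624, adjusted P = 3.64e-49), 8.93-fold lower. No model library reached the level of a control library in either species. In mouse, 998 bases of the exons of Fgfr3 overlap G630022F23Rik on the opposite strand.

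Fgfr4 had the lowest level of the 4 kinase receptor genes in each group and the largest fold change of the members tested. In rat (ENSRNOG00000016763), its FPKM was 1.16, 1.32 and 0.933 in the RC libraries and 0.192, 0.150 and 0.112 in the RM libraries, from 266 and 35 counts over the groups. Its fold change on the log2 scale was -2.93 (SE 0.275, adjusted P = 2.17e-05). In mouse (chromosome 13, 55152640 to 55168759), the FPKM was 1.58, 1.94 and 1.90 in the MC libraries and 0.0282, 0.0289 and 0.0484 in the MM libraries. The log2FC of -5.36 (SE 0.334, adjusted P = 1.59e-22) rested on 7 counts over the MM group, and without 1 library it ran from -5.62 to -5.22.

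Fgfrl1, the receptor gene without a kinase domain, fell as well. In rat (ENSRNOG00000024207), its FPKM was 30.2, 36.3 and 34.3 in the RC libraries and 15.2, 17.6 and 17.5 in the RM libraries, a log2FC of -1.02 (SE 0.0918, adjusted P = 1.68e-05). In mouse (chromosome 5, 108692382 to 108706924), it had 46.8, 45.7 and 48.4 in the MC libraries and 8.05, 8.20 and 8.64 in the MM libraries, a log2FC of -2.22 (SE 0.0502, adjusted P = 6.51e-46). The groups did not overlap in either species.

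**Figure D2:**
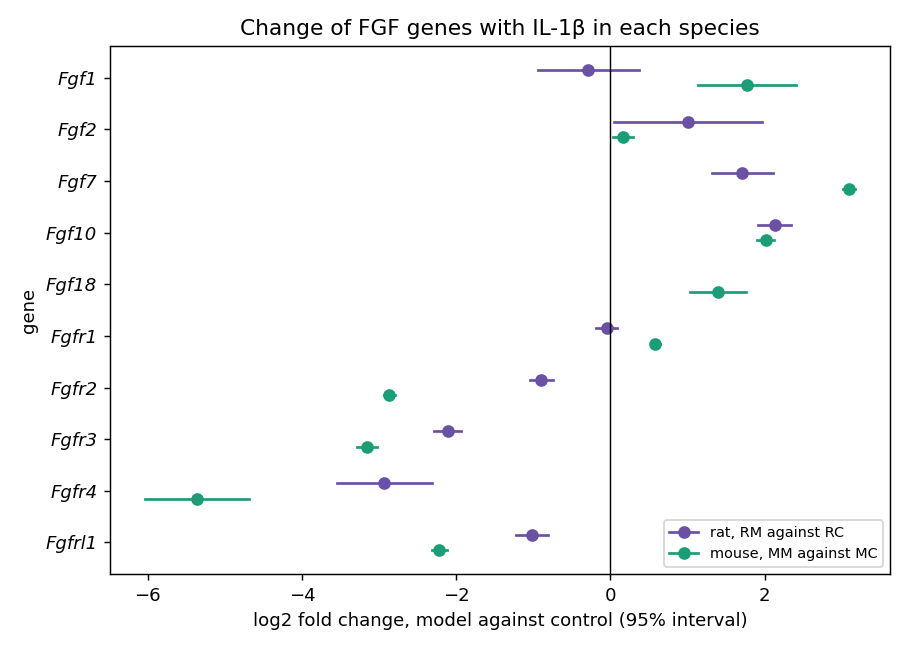
Log2FC of each FGF gene in the model group against the control group (points) with its 95% interval (lines), in rat (purple) and mouse (green); Fgf18 was not tested in rat. Fgf10 lies at 2.13 and 2.01, whereas Fgfr2 lies at -0.90 in rat and -2.87 in mouse.

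Since FPKM are per length, the receptor genes of a library could be set side by side. The share of Fgfr1 in the summed FPKM of Fgfr1 to Fgfr4 was 38.8%, 40.1% and 39.2% in the RC libraries and 61.6%, 59.0% and 58.9% in the RM libraries. In mouse it was 27.6%, 26.7% and 27.8% in the MC libraries and 81.4%, 81.9% and 80.5% in the MM libraries. Fgfr1 and Fgfr2 held similar shares of the summed FPKM in the RC group (39.4% ± 0.642 and 37.8% ± 1.19, SD, n = 3). In mouse, Fgfr2 held 57.6% ± 0.881 in the MC group. In the MM group Fgfr2 held 15.7% ± 0.361. The share of Fgfr3 went from 22.4% ± 0.791 in the RC group to 8.16% ± 0.305 in the RM group, and from 13.6% ± 0.407 in the MC group to 3.03% ± 0.372 in the MM group. Fgfr4 held 1.52% ± 0.161 in the MC group and 0.377% or less on average in the other 3 groups. The summed FPKM of the 4 genes was 301.7 ± 12.2 (RC) and 193.8 ± 5.23 (RM), and 118.9 ± 1.86 (MC) and 49.2 ± 0.642 (MM). For each share and sum, the groups did not overlap, and the two-sided exact permutation test gave P = 0.1, the smallest value that 3 libraries against 3 allow. The shares do not depend on the scaling of a library. They do depend on the gene lengths behind the FPKM, so levels of a share were not compared between rat and mouse. In the RC group, Fgfr1 had 27878 counts over 3389 bases and Fgfr2 had 37761 counts over 4772 bases.

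**Figure D3:**
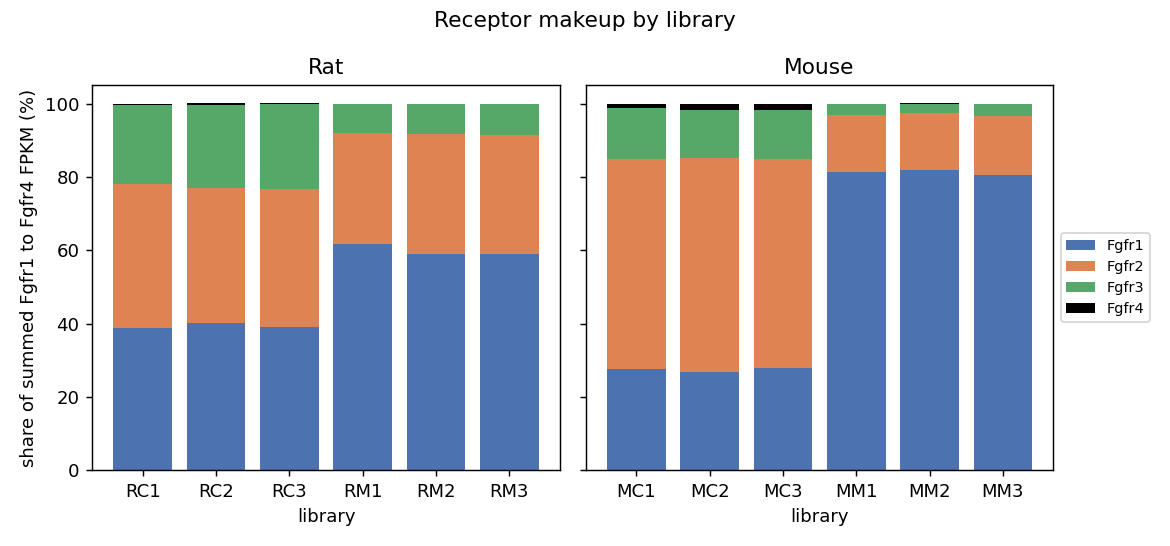
Share of each kinase receptor gene in the summed FPKM of Fgfr1 to Fgfr4 (%, stacked bars), in each rat library (left) and mouse library (right). Fgfr1 takes 58.9% to 61.6% in the RM libraries and 80.5% to 81.9% in the MM libraries, above every control library.

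By FPKM, the order of the members within a group changed with stimulation. In the RC group the order was Fgfr1 (118.8 ± 6.69, SD, n = 3), Fgfr2 (114.1 ± 4.03), Fgfr3, Fgf7, Fgfrl1, Fgf10, Fgfr4, Fgf1, Fgf2 and Fgf18. The libraries of Fgfr1 and Fgfr2, of Fgf7 and Fgfrl1, and of Fgf1 and Fgf2 overlapped there. In the RM group Fgf7 (134.9 ± 14.0) stood above Fgfr1 (115.9 ± 0.932), followed by Fgfr2, Fgfrl1, Fgfr3, Fgf10, Fgf2, Fgf1, Fgfr4 and Fgf18, and the neighbours Fgfrl1 and Fgfr3 overlapped, as did Fgfr4 and Fgf18. In the MC group the order was Fgfr2 (68.5 ± 2.11), Fgfrl1 (47.0 ± 1.38), Fgfr1 (32.5 ± 0.21), Fgf7, Fgfr3, Fgf10, Fgf2, Fgf18, Fgfr4 and Fgf1, with overlaps between Fgf7 and Fgfr3 and between Fgf18 and Fgfr4. In the MM group it was Fgf7 (123.3 ± 4.14), Fgfr1 (40.0 ± 0.523), Fgf10 (19.2 ± 0.76), Fgfrl1, Fgfr2, Fgf2, Fgf18, Fgfr3, Fgf1 and Fgfr4, and the neighbours Fgf2 and Fgf18 overlapped. Other neighbours did not overlap in these 4 groups. These orders depend on the gene lengths behind the FPKM. In the MM group, Fgf7 and Fgfr1 had 22897 and 22551 counts, over lengths of 3248 and 9875 bases. In the RM group they had 6503 and 27507 counts, over 693 and 3389 bases.

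The study asked where rat and mouse chondrocytes respond alike and where they differ. The difference between the log2FC values, mouse minus rat, was tested in 1 fit of all 12 libraries over the 10912 genes that passed the filter among the 14351 shared by symbol, each species scaled on its own. The fit used 1 estimate of the spread for both species, although the replicates spread more in rat. For Fgf2 the SE of the difference was thus 0.35, below the 0.435 of its change in rat alone. Of the 9 members tested, 8 had an adjusted P under 0.05, against 63.8% of all genes in this fit (31.4% with the change more positive in mouse and 32.3% in rat). The changes of Fgf1, Fgf7 and Fgfr1 were more positive in mouse, and those of Fgf2, Fgfr2, Fgfr3, Fgfr4 and Fgfrl1 more negative. The difference was 2.06 for Fgf1 (95% interval 1.13 to 2.99, adjusted P = 0.000605), on few counts, and 0.63 for Fgfr1 (interval 0.49 to 0.77, adjusted P = 3.21e-07). It was 1.38 for Fgf7 (SE 0.192, adjusted P = 7.74e-06) and -1.97 for Fgfr2 (SE 0.0773, adjusted P = 9.27e-13), the member with the smallest P. It was -1.04 for Fgfr3 (adjusted P = 2.25e-07), -1.21 for Fgfrl1 (3.29e-08) and -2.43 for Fgfr4 (0.000656), so the 4 receptor genes that fell in both species fell further in mouse. For Fgf10 it was -0.12 (SE 0.107, adjusted P = 0.343) with a 95% interval of -0.35 to 0.11. With library size alone the difference for Fgf10 was -0.41 (adjusted P = 0.00258). For Fgf2 it was -0.84 (95% interval -1.58 to -0.10, adjusted P = 0.0458), and the call was lost in 8 of the 12 fits that left out 1 library. It ran from -1.31 without RC replicate 3 (adjusted P = 0.00617) to -0.46 without RC replicate 2 (adjusted P = 0.212).

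Few of the other FGF genes were measured. Of 18 such genes, 11 were in the rat table and 16 in the mouse table, and 3 and 8 passed the filter on low counts. In rat, edgeR called none of Fgf9, Fgf13 and Fgf22 (0 also at an unadjusted P under 0.05 and by DESeq2, 1 by limma). Their log2FC values were 0.29, -0.32 and -0.37. The FPKM of Fgf22 in rat was 9.06 ± 1.14 (RC) and 7.10 ± 0.0992 (RM), and Fgf9 and Fgf13 stayed under a mean of 1. In mouse 2 rose and 5 fell, beside 37.4% and 37.7% of all mouse genes tested (75.0% called in either direction, and 35.1% in rat). Fgf9, which encodes a paracrine ligand of the kinase receptors, had 4 counts in all MC libraries and 591 in all MM libraries, an FPKM of 0.0165 ± 0.0143 (SD, n = 3) and 2.23 ± 0.0745. Its change differed from that in rat by 6.95 on the log2 scale (adjusted P = 8.4e-07). Fgf11, which encodes a protein that stays inside the cell, rose by 3.16. Fgf21, an endocrine ligand, fell by 3.32 with an FPKM of 2.75 ± 0.22 (MC) and 0.224 ± 0.0721 (MM). Fgf14 fell by 1.75, Fgf12 fell by 2.28 and Fgf13 fell by 0.22 (adjusted P = 0.0182, FPKM 5.85 ± 0.686 in the control and 4.15 ± 0.107 in the model group), all 3 genes of the subfamily that stays inside the cell. Fgf5 fell too, from 40 counts (MC) to 3 (MM), 14.7 times fewer (95% interval for counting error 4.67 to 74.1). Fgf22 was not called (0.66, adjusted P = 0.107). The median log2FC of the list was -0.32 in rat and -0.98 in mouse, against 0.01 and -0.02 over all genes tested.

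Among 20 genes of coreceptors and FGF-binding proteins, 5 of the 14 tested rose and 6 fell in rat, and 10 of the 16 tested rose and 4 fell in mouse (8 and 4 with library size alone). Over all genes tested, 18.3% rose and 16.8% fell in rat, and 37.4% rose and 37.7% fell in mouse. The median log2FC was -0.17 in rat and 0.38 in mouse, against 0.01 and -0.02 over all genes tested. Sdc4, which encodes the heparan sulfate proteoglycan syndecan-4, rose in both species, by 0.92 in rat and 1.64 in mouse. Gpc1, which encodes glypican-1, fell by 0.96 in rat (adjusted P = 8.5e-06) and rose by 1.29 in mouse (adjusted P = 2.59e-46). The species differed by 2.25 for Gpc1 (adjusted P = 5.69e-13). Flrt2, which encodes a membrane protein of the FLRT family, rose by 1.47 in rat. In mouse the log2FC of Flrt2 was 0.23 with TMM (adjusted P = 5.59e-07), whereas its mean FPKM, scaled to library size alone, was 14.6 in the control and 14.2 in the model group. Gpc6, another glypican gene, fell by 0.73 in rat and 0.64 in mouse (both called). Gpc3 fell by 0.97 in rat and 2.00 in mouse (both called). Sdc2, the gene of syndecan-2, fell by 0.59 in rat and 0.53 in mouse (both called).

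Among 14 genes for the synthesis and editing of heparan sulfate, all were tested in both species, 5 rose and 2 fell in rat (median log2FC 0.14), and 9 rose and 5 fell in mouse (median 0.15). Over all genes tested, 35.1% were called in rat and 75.0% in mouse. Ext1, which encodes a polymerase of the chain, rose by 0.79 in rat and 1.40 in mouse. Sulf1, which encodes a sulfatase that removes sulfate groups from the chain, rose by 0.76 and 1.83. Glce, the epimerase gene, fell by 0.42 in rat and fell by 0.29 in mouse. Ext2 fell by 0.41 in rat and 0.10 in mouse (both called). Hs6st2, a sulfotransferase, fell by 1.20 in mouse and was not called in rat (0.27, adjusted P = 0.112 by edgeR). With library size alone, 5 of the 14 rose and 7 fell in mouse (median -0.13), so the balance of this list depends on the scaling.

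Of 26 genes that carry the signal inside the cell, 25 were tested in rat and all in mouse. In rat 5 rose, 4 fell and 16 were not called, with a median log2FC of 0.04, beside 35.1% of all genes called. In mouse, where 75.0% of all genes were called, 17 rose and 7 fell, with a median of 0.22, but 8 rose and 11 fell with library size alone (median -0.06). Map2k1, which encodes the kinase MEK1, rose by 2.07 in mouse (adjusted P = 1.02e-52), and by 0.25 in rat (adjusted P = 0.0145). Gab1, which encodes a docking protein, had a log2FC of -0.42 in rat and -1.53 in mouse (both called). Pik3r1, the regulatory subunit of PI3 kinase, rose by 1.22 in rat (adjusted P = 2.64e-05) and fell by 0.36 in mouse (adjusted P = 5.68e-16). Cbl rose by 0.59 in rat and 0.36 in mouse (both called). Map2k2 fell by 0.40 in rat (adjusted P = 0.0105) and rose by 0.42 in mouse (adjusted P = 1.13e-15). Ptpn11 rose by 0.72 in mouse and was not called in rat (0.11, adjusted P = 0.218).

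The 20 genes of feedback regulators and targets, among them the Sprouty, Spred, Dusp and Etv genes, are shared by several growth factor and cytokine pathways that use ERK. Of the 19 tested in each species, 9 rose and 2 fell in rat (median log2FC 0.30), and 15 rose and 3 fell in mouse (median 1.44). Of all rat genes tested, 18.3% rose and 16.8% fell, and of all mouse genes 37.4% and 37.7%. With library size alone, 13 rose and 5 fell in mouse (median 1.16). Dusp6, which encodes a phosphatase of ERK, had an FPKM of 5.12 ± 0.525 (MC) and 44.1 ± 0.878 (MM, both SD, n = 3), a log2FC of 3.38 (adjusted P = 2.69e-54), and one of 0.67 in rat (adjusted P = 0.00201). The difference was 2.71 (adjusted P = 5.84e-11). Spred2, an inhibitor of the same pathway, rose by 0.49 in rat and 2.19 in mouse. Timp1, the inhibitor of matrix metalloproteinases, rose by 0.55 and 2.40. Spry1 fell by 1.15 in rat, on 53 and 24 counts over the groups, and rose by 1.21 in mouse. Snai1, the gene of a transcriptional repressor, fell by 0.48 in rat and fell by 0.67 in mouse. Ccnd1, which encodes cyclin D1, fell by 1.56 in mouse (adjusted P = 1.56e-46) and had a log2FC of -0.07 in rat (adjusted P = 0.479).

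**Figure D4:**
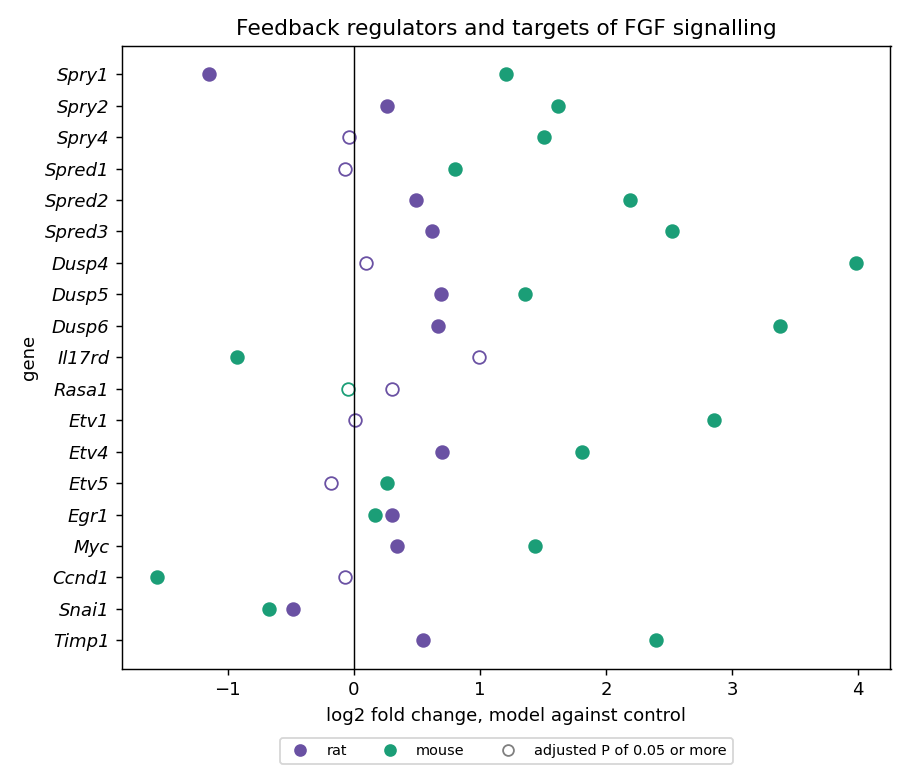
Log2FC (model against control) of the 19 feedback and target genes tested in rat (purple) and mouse (green), 1 row per gene. Filled points have an adjusted P under 0.05 and open points do not; in mouse Dusp4, Dusp6 and Etv1 lie furthest to the right (3.98, 3.38 and 2.86), while Ccnd1 lies at -1.56.

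The genes whose values ran closest to those of a member were found by the distance over the 12 libraries of log2(FPKM + 1), centred on the mean of the control libraries of the species, among 9431 genes. The search was limited to genes outside the gene lists above, so a closer listed gene would not appear. For Fgfr3 they were Zim1 (distance 0.776, log2FC values of -2.30 in rat and -2.98 in mouse), Nkd1 (0.798, -2.16 and -5.29) and Pcolce2 (0.821, -1.69 and -2.84). For Fgf7 they were Gch1 (0.86, 1.70 and 4.04), Nfkbia (0.893, 2.09 and 3.15) and Ackr3 (0.908, 1.65 and 3.31). These are descriptions of likeness in 12 libraries of 4 groups. Adding 1 to the FPKM shrinks changes at low levels, so a close gene can differ in log2FC. In mouse, Nkd1 stood at -5.29 and Fgfr3 at -3.16.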

How the data were processed

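RNA-seq libraries of rat and mouse chondrocytes (NEBNext Ultra RNA kit, Illumina sequencing) were grouped by library name, RC and RM for rat, MC and MM for mouse, with 3 libraries each. Per the labels, the submitters' processing notes name HISAT2, HTSeq 0.11.2 and the builds GRCm38 and Rnor_6.0. Whether strand was used in counting is not given in the sources used here. In both tables the authors deposited raw counts per Ensembl gene and FPKM, which carry no correction beyond gene length and column total. Mouse coordinates are from GENCODE M21 (GRCm38), whose merged exon length equalled the length behind the FPKM for the members other than Fgf1.

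The count model was fitted with edgeR 4.0.16 under R 4.3.3 (filterByExpr, TMM, glmQLFit and glmQLFTest). The filter tested 13303 rat and 14774 mouse genes. TMM factors were 0.994 to 1.01 in rat, 1.10 for MC libraries and 0.905 to 0.911 for MM libraries. Standard errors were derived from the fit's F statistic and intervals are at 95%. The ratio for Fgf18 in rat sets 3 counts for the empty group and carries no interval. The interval for Fgf5 in mouse covers counting error only. At these depths 3 counts in a library are 0.116 to 0.178 CPM. DESeq2 1.42.0, limma 3.58.1 on log2(FPKM + 1) or log2(FPKM + 0.1), other scalings, no filter, a replicate block and leaving out each library were alternatives. The tests were checked on simulated counts with 144 of 13304 rat and 118 of 14687 mouse genes tested changed. edgeR recovered 100% and 97.46% of these, and 7.69% and 8% of its calls were false. For the difference between the species it recovered 95.57%, with 3.96% of calls false. The simulation used 1 dispersion per species and far fewer changed genes than were called here, so it does not give the error rate of these data.

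The 10 members, the gene lists and the criteria were chosen with earlier results of these data known. All members are named. Of each list, the 2 called genes of lowest adjusted P are named per direction and species, and of the other FGF genes all that were tested. A gene that this rule names is not reported here. Dusp4 and Etv1 were named after their values were seen. Log2FC is the log2 fold change. Replicate numbers recur across groups, but same-numbered samples did not deviate together.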

Additional observations from a re-analysis of the deposited data

Results flagged for a closer look

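The change with IL-1β differed between rat and mouse for 8 of the 9 members tested, by the test of the difference in the fit of all 12 libraries (adjusted P under 0.05, as for 63.8% of all genes in that fit). The log2 fold change in mouse minus that in rat was 2.06 for Fgf1, -0.84 for Fgf2, 1.38 for Fgf7, 0.63 for Fgfr1, -1.97 for Fgfr2, -1.04 for Fgfr3, -2.43 for Fgfr4 and -1.21 for Fgfrl1. The values of Fgf1, Fgf2 and Fgfr4 rest on few counts in at least 1 group, namely 36 over the MC group for Fgf1, 36 over the RC group for Fgf2 and 7 over the MM group for Fgfr4.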

How the results depend on the processing

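The members called in rat were 2 higher and 4 lower (2 to 3 and 4 when any 1 library was left out), and in mouse 6 higher and 4 lower (5 to 6 and 4). The criteria for DEGs, as read here, called 3 higher in mouse. For the difference between the species, 3 members were higher and 5 lower (3, and 4 to 5). Without TMM, the median log2FC over mouse genes moved from -0.016 to -0.295. Fgf2 in mouse reversed to -0.12 with library size alone, -0.10 with limma on log2(FPKM + 1) and -0.11 on log2(FPKM + 0.1), scales without the TMM correction. Its call was lost with DESeq2 (0.17, adjusted P = 0.0515). The difference for Fgf10 was called with limma on log2(FPKM + 0.1) (-0.38, adjusted P = 0.00774). As shares of counts, without gene length, the change of Fgfr3 was -12.7 percentage points in rat, and those of Fgfr2, Fgfr3 and Fgfr4 in mouse -45.1, -7.83 and -0.532.

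Without 1 library, the changes in share were 19.6 to 20.9 percentage points for Fgfr1, -6.34 to -5.2 for Fgfr2, -14.7 to -13.9 for Fgfr3 and -0.327 to -0.277 for Fgfr4 in rat, and 53.6 to 54.3, -42.2 to -41.4, -10.7 to -10.3 and -1.54 to -1.4 in mouse. No pairing by replicate number was seen in the expression values. Correlations of same-numbered deviations were -0.0977 to 0.0849 in rat and 0.00124 to 0.0149 in mouse. Not every sample was closest to its own number. With 3 samples per group, this cannot show whether same-numbered samples share an origin, which the sources used here do not state. The replicate block gave 4534 calls in place of 4667 in rat and 11047 in place of 11085 in mouse, with the same 2 and 4 and 6 and 4 members by count, and 3 and 5 for the difference.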
